A study of Homo sapiens with 3 samples.

Results

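The histone genes were taken as every gene with a ribosome peak whose symbol begins with HIST1H, HIST2H, HIST3H or HIST4H, the replication-dependent histones, or with H1F, H2AF or H3F3, the replacement histones. By this rule 71 of the 3581 genes with a peak in at least 1 list were histone genes, 59 replication-dependent and 12 replacement, the latter including the antisense RNA gene H1FX-AS1 and the pseudogene H3F3AP4. The rule used symbols alone and no measured value.

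The data are ribosome profiling peaks, stretches of mRNA protected from nuclease by ribosomes, from HEK293T cells, a human embryonic kidney line. The cells were transfected for 24 h with empty pCDNA3.1 vector, with FLAG-tagged wild-type DDX3X (WT DDX3X) or with FLAG-tagged DDX3X carrying the G325E substitution (G325E). DDX3X is an RNA helicase, and the question of the comparison is how the wild-type and mutant proteins change which mRNAs ribosomes occupy. There was 1 library per construct, so no difference between the lists could be set against replicate error, and every interval given is a 95% Wilson interval that covers counting error only.

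All 3 cultures were, per the labels, treated with harringtonine at 2 µg/ml for 90 s, which holds newly initiating ribosomes at start codons, and then with cycloheximide at 100 µg/ml, which stops elongating ribosomes. The study's methods name cycloheximide alone, and which description holds could not be settled. The constructs were added by transient transfection, and the labels describe no deletion of the cells' own DDX3X. The labels also call the cells neuronal. Of 8 neuronal marker genes, 3 had a peak in each list (TUBB3, NEFL and NEFM), and of 4 epithelial markers 0, 2 and 0 had a peak in the vector, WT DDX3X and G325E lists. The lists held 11219, 19920 and 15680 peaks in the same order, with no peak height, so a change in mRNA level and a change in ribosomes per mRNA cannot be told apart.

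Replication-dependent histones package newly made DNA and are produced mainly in S phase. Their genes lie in clusters, have no introns, and give mRNAs that end in a conserved stem-loop, bound by the protein SLBP, instead of a poly(A) tail. Replacement histones are made throughout the cell cycle, mostly from spliced and polyadenylated mRNAs, and are exchanged into chromatin for particular roles.

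The stem-loop separates the classes at the sequence level and marks how close to the coding sequence a replication-dependent mRNA ends. The 6 examples below were read from the GRCh37 genome, 5′ to 3′ on the strand of each gene, with the stem-loop in capitals and 5 flanking bases on each side in lower case. They lie at chr6:26031820-26031845 (minus strand), chr6:27114140-27114165 (minus), chr6:26104540-26104565 (plus), chr1:149804591-149804616 (plus), chr6:27840926-27840951 (minus) and chr11:118965603-118965628 (minus), in the order shown, all in the 3′-UTR.
HIST1H3B: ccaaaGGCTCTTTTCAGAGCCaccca
HIST1H2BK: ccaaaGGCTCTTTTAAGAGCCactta
HIST1H4C: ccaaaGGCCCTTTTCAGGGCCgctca
HIST2H4A: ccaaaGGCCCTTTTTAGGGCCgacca
HIST1H4L: tcaaaGGCCCTTCTCAGGGCCaccca
H2AFX: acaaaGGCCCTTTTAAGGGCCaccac

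A stem-loop of this pattern, searched on the gene's own strand in the 200 bases after the stop codon, was present in all 68 replication-dependent genes with a coding model, in 1 of 16 replacement genes (H2AFX) and in 1 of 19787 other coding genes (0.00505%). The form shown for HIST1H3B was shared by 40 genes, the forms of HIST1H4C and HIST1H2BK by 9 each and the form of HIST2H4A by 4, while the forms of HIST1H4L and H2AFX each occurred in 1 gene. The 16 bases of the stem-loop began 22 to 67 bases (median 35) after the stop codon. A match describes the letters in this window and no more.

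The H3 genes show how far the classes differ within a protein family that is nearly the same in amino acids. The 60 coding bases below (bases 223 to 282 of the coding sequence, and 220 to 279 in H3F3C, which is 1 codon shorter) are shown because the coverage of H3F3B stopped 3 bases past their right edge, which is an exon end in H3F3A and H3F3B. Capitals mark bases that differ from HIST1H3B. The stretches lie at chr6:26032007-26032066 (minus), chr1:149784955-149785014 (minus), chr1:226253451-226253510 (plus), chr17:73774891-73774950 (minus) and chr12:31944822-31944881 (minus), GRCh37, all within 1 coding exon.
HIST1H3B: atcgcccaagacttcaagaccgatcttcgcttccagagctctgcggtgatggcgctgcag
HIST2H3D: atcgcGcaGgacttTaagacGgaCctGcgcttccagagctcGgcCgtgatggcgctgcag
H3F3A: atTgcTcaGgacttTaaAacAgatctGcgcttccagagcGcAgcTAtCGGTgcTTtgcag
H3F3B: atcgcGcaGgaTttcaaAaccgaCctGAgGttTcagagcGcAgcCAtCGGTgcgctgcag
H3F3C: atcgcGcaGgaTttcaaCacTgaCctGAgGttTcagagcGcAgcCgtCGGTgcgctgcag

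HIST2H3D differed from HIST1H3B at 8 of these 60 bases, and H3F3A, H3F3B and H3F3C differed at 17 each. Over the whole coding sequence of 408 bases, HIST1H3B was identical to HIST2H3D at 82.8% of bases, to H3F3A at 77.9% and to H3F3B at 77.2%. Members this alike can share reads, so pooled and median coding coverage are also given for unique sequence. Unique bases are those that lie in a 28-base word found at most 1 time in the genome. Spliced transcripts were not searched. Family medians, 2-fold calls, exons and profiles along the coding sequence were not recomputed on unique bases.

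Replication-dependent histones held nearly the same number of peaks in every list, 255 in vector, 273 in WT DDX3X and 280 in G325E. The WT DDX3X number was 1.07 times and the G325E number 1.098 times that of vector, while all peaks together were 1.78 and 1.40 times those of vector. Their share of all peaks was therefore 2.27% in vector (2.01 to 2.57), 1.37% in WT DDX3X (1.22 to 1.54) and 1.79% in G325E (1.59 to 2.01), against a floor of 3 peaks that corresponds to 0.0267%, 0.0151% and 0.0191%. With the peaks of each list weighted to the same GC content the shares were 2.09%, 1.27% and 2.43%, so the order of vector and G325E turned while WT DDX3X stayed lowest.

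Replacement histones held 51, 71 and 71 assigned peaks in vector, WT DDX3X and G325E, and this number in both DDX3X lists was 1.39 times that of vector. Placed by position on histone exons the numbers were 33, 50 and 40, so the DDX3X lists were then not equal. The shares that follow use assigned peaks. Their share was 0.455% (0.346 to 0.597), 0.356% (0.283 to 0.449) and 0.453% (0.359 to 0.571), with intervals that overlap between every pair of lists. The other 112 single-exon genes, which like replication-dependent histones have no introns, held 521, 816 and 868 peaks, or 4.64% (4.27 to 5.05), 4.10% (3.83 to 4.38) and 5.54% (5.19 to 5.90). Replication-dependent genes made up 83.3% of histone peaks in vector (78.8 to 87.1), 79.4% in WT DDX3X (74.8 to 83.3) and 79.8% in G325E (75.3 to 83.6).

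**Figure D1:**
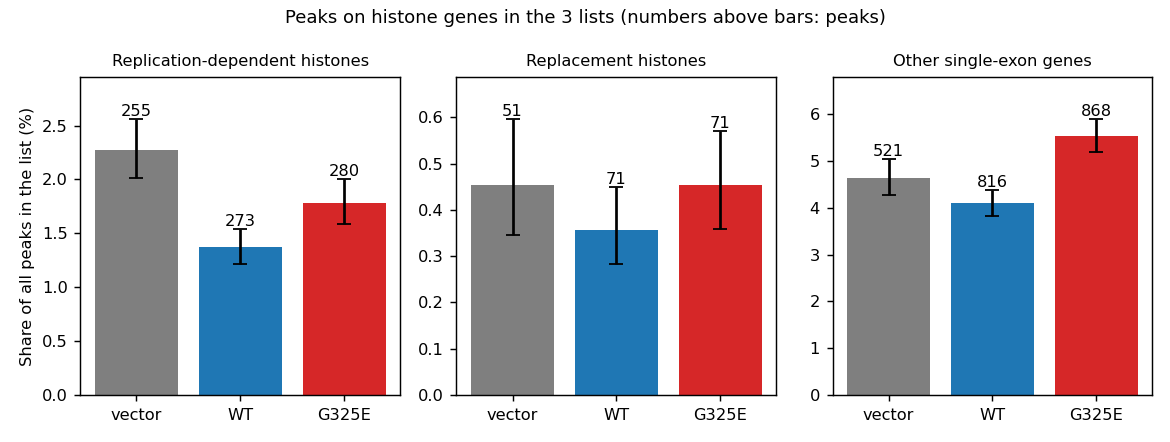
Share of all peaks (percent, y axis) assigned to replication-dependent histones, replacement histones and other single-exon genes in the vector, WT DDX3X and G325E lists; error bars are 95% Wilson intervals and cover counting error only. Replication-dependent histones had the largest share in vector (2.27%) and the smallest in WT DDX3X (1.37%), and the replacement intervals overlap between lists.

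Peak numbers per gene depend on which gene a peak is assigned to, because histone genes lie close together and often face away from each other. Of the replication-dependent peaks, 135, 141 and 148 lay on an exon of the gene they were assigned to, and 93, 92 and 109 lay on an exon of another histone gene. HIST1H2BK, for example, had 1, 1 and 0 assigned peaks in vector, WT DDX3X and G325E, yet 4, 3 and 4 peaks lay on its exon. Peaks assigned to H1FX-AS1 (4, 2 and 7) all lay on the H1FX strand of the H1FX exon, and no peak was placed on an exon of H1FX-AS1. Of the replacement peaks, 23, 42 and 30 lay on an exon of their own gene and 8, 5 and 10 on another histone gene's exon. A further 15, 14 and 15 lay in an intron of a histone gene, and 5, 10 and 16 lay elsewhere. H3F3AP4 had 5, 4 and 6 assigned peaks and 0 on its exon in each list. Placed by position on histone exons, 231, 237 and 260 peaks fell on replication-dependent genes, 98.7%, 97.9% and 98.5% of them on the strand of the gene, and 33, 50 and 40 fell on replacement genes, 97.0%, 96% and 92.5% on the strand of the gene.

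By assignment, all 59 replication-dependent members had a peak in vector and in WT DDX3X, and 57 had one in G325E. The 2 missing from G325E were HIST1H2BK, which still had peaks on its exon, and HIST1H3G. For comparison, 29% of all genes with a peak in vector and 40.5% of those in WT DDX3X had none in G325E, against 2 of 59 replication-dependent genes in each comparison. Of the genes in vector 5.04% had no peak in WT DDX3X, and 0 of 59 replication-dependent genes did. In the opposite directions 36.1% of the genes in WT DDX3X and 37.8% of those in G325E had no peak in vector, and 22.5% of those in G325E had none in WT DDX3X, against 0 replication-dependent genes in all 3 comparisons. Genes with many peaks are less easily without one in another list, so these counts also follow the members' peak number.

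Among the 12 replacement genes, 10, 12 and 10 had a peak, and 9 had one in every list. H2AFV had 1, 1 and 0 assigned peaks, H2AFY2 had 0, 2 and 5 and H3F3C had 0, 8 and 0. Peak numbers were also scaled to the total of each list, and all genes here means those with a peak in either list compared. On this scale 15 of 59 replication-dependent genes were at least 2-fold lower in WT DDX3X than in vector (15.9% of all genes). Of the same replication-dependent genes 5 of 59 were at least 2-fold lower in G325E than in vector (30.1% of all genes). Their count against WT DDX3X was thus above the background share, and their count against G325E below it. The scaling divides by list totals, and WT DDX3X held 1.78 times the peaks of vector. HIST2H3D, called lower in WT DDX3X, went from 2 peaks to 1 with 99.02% and 100% of its coding bases under a peak. By covered coding bases, described below, 0 of 58 were at least 2-fold lower in WT DDX3X than in vector. In the opposite direction, again by scaled peak number, 0 and 1 of 59 (HIST1H4L) were at least 2-fold lower in vector than in WT DDX3X and G325E. The background was 38.5% and 35.7%. Between the DDX3X lists 2 of 59 (HIST1H2BK and HIST1H3G) were at least 2-fold lower in G325E than in WT DDX3X (39.9% of all genes) and 10 of 59 were at least 2-fold lower in WT DDX3X than in G325E (25.2% of all genes). Of the replacement genes 2 to 3 were called in each of these 6 comparisons of scaled peak number.

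Coding coverage, the percent of a gene's coding bases under a peak, describes the members better than peak numbers, because long and broken peaks count alike. A peak also counts where it lies, whatever gene it was assigned to. Peaks on either strand count, so a peak on the other strand over the same bases adds to the coverage, as for H2AFX below. A coding model was present for 84 histone genes, 68 replication-dependent and 16 replacement. No coding base was covered in any list in 9 of the 68 (HIST1H1A, HIST1H1T, HIST1H2AA, HIST1H2BA, HIST1H2BB, HIST1H3C, HIST1H3E, HIST2H3PS2 and HIST3H3) or in 6 of the 16 (H1FNT, H1FOO, H2AFB1, H2AFB2, H2AFB3 and H2AFJ). Several of these are testis or oocyte histones, among them HIST1H1T, HIST1H2BA and HIST3H3 of the testis and H1FOO of the oocyte. The lists show peaks only, so a gene without one may still have been translated below the authors' cut-off.

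Coverage followed position, so its 59 covered replication-dependent genes are not the same set as the 59 with an assigned peak. The sets shared 55 genes. HIST1H2AD, HIST2H2AA3, HIST2H3A and HIST2H4B were covered but had no assigned peak, and HIST1H2APS1, HIST1H2BF, HIST2H2BA and HIST2H2BC had assigned peaks but no coding model.

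These 59 covered genes had a median of 82.5% of their coding bases under a peak in vector, 83.5% in WT DDX3X and 80.4% in G325E. Over all 68, with the uncovered genes included, the median was 78.7%, 77.4% and 78.1%. At least 50% of the coding sequence was covered in 49, 53 and 54 genes. The 10 covered replacement genes had medians of 32.1%, 38.9% and 22.8%. The 2989 other coding genes with a covered base had medians of 2.59%, 10.8% and 3.89%, the 680 of them with a coding sequence as short as that of the replication-dependent genes (294 to 678 bases) 18.2%, 24.9% and 11.3%, and the 82 with a single exon 7.58%, 17.5% and 26.6%. Replication-dependent genes were thus the most fully covered of these sets in each list, and their median moved by the fewest points between lists. Among genes at least 90% unique the order of the 2 histone classes differed in G325E, as given below.

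Between families the medians differed by more than between lists. Median coverage in vector, WT DDX3X and G325E was 90.6%, 93.7% and 85.2% for 4 H1 genes, the linker histones that bind DNA between nucleosomes. Of the core histones, around which DNA is wound, 16 H2A genes had 85.1%, 80.2% and 80.9%, and 14 H2B genes had 90.7%, 93.8% and 83.7%. The 11 H3 genes had 78.9%, 70.8% and 76.2%, and the 14 H4 genes had 75.9%, 75.2% and 72.8%. H3 was the family in which single genes lost or gained all coverage between lists.

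**Figure D2:**
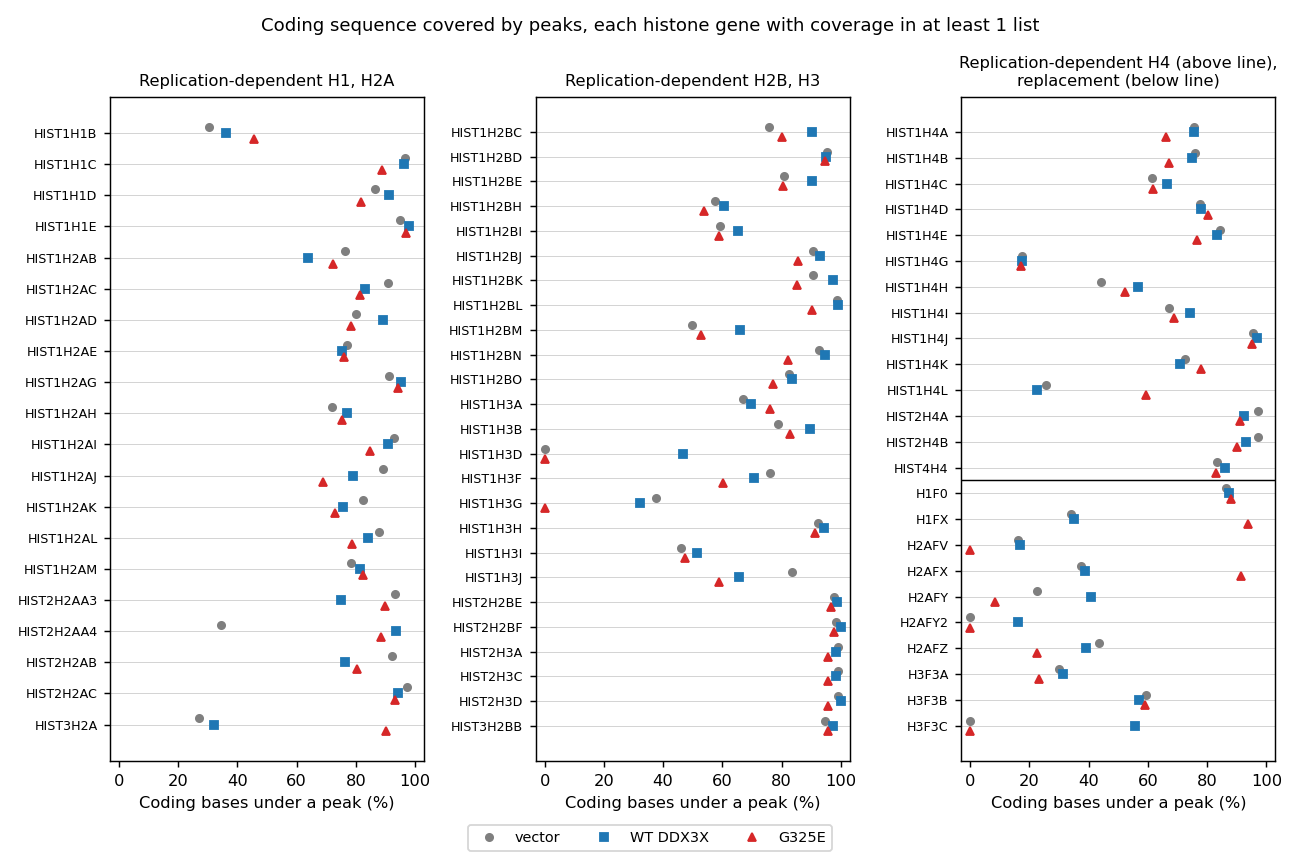
Percent of coding bases under a peak (x axis) for the histone genes covered in at least 1 list, by gene and family, with 1 marker each for vector, WT DDX3X and G325E. Most replication-dependent genes lie above 50% in all 3 lists with their markers close together, while the markers of H1FX, H2AFX, HIST3H2A and HIST1H4L for G325E lie far to the right of the other lists.

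From vector to G325E the coverage of 49 of 59 replication-dependent genes changed by at most 10 percentage points, 4 were more than 10 points higher and 6 more than 10 points lower. The same held for 5 of 10 replacement genes and for 2045 of 2989 other coding genes, many of which were at 0 in both lists. Coverage was at least 2-fold lower in G325E than in vector in 1 of 58 replication-dependent genes (HIST1H3G), with a background of 38.4%. The same call was made in 2 of 8 replacement genes (H2AFV and H2AFY). Each background for coverage is the share among coding genes with a covered base in the list with the higher value. Coverage at least 2-fold lower in G325E than in WT DDX3X was found in 2 of 59 (HIST1H3D and HIST1H3G; background 54.2%) and in 4 of 10 replacement genes (H2AFV, H2AFY, H2AFY2 and H3F3C).

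The opposite calls were as few. Coverage was at least 2-fold lower in vector than in G325E in 3 of 57 replication-dependent genes (HIST1H4L, HIST2H2AA4 and HIST3H2A; background 46.2%) and in 2 of 7 replacement genes (H1FX and H2AFX). It was at least 2-fold lower in vector than in WT DDX3X in 2 of 59 (HIST1H3D and HIST2H2AA4; background 45.9%) and in 2 of 10 replacement genes (H2AFY2 and H3F3C). It was at least 2-fold lower in WT DDX3X than in vector in 0 of 58 and 0 of 8, with a background of 6.84%, and at least 2-fold lower in WT DDX3X than in G325E in 2 of 57 (HIST1H4L and HIST3H2A) and 2 of 7 (H1FX and H2AFX), with a background of 32%. A gene above 50% covered cannot rise 2-fold, so these counts are limited by the members' high coverage.

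Genes of the chromosome 1 cluster were among the best covered replication-dependent genes. HIST2H3C, coding for H3, was covered at 99.02%, 98.3% and 95.8% in vector, WT DDX3X and G325E, and HIST2H4A, coding for H4, at 97.1%, 92.6% and 90.9%. Neither gene has a coding base in a unique word, and their copies HIST2H3A and HIST2H4B gave nearly the same values, so the reads of these pairs cannot be told apart. Among the genes named for their peak number whose coding sequence was wholly unique, the linker histone genes HIST1H1E (94.98%, 97.9% and 96.8%) and HIST1H1C (96.7%, 96.2% and 88.9%) and the H4 gene HIST4H4 on chromosome 12 (83.2%, 86.1% and 82.8%) were nearly as full. HIST1H4C, another H4 gene, was covered at 61.5%, 66.3% and 61.8%.

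Unique and shared bases were also taken apart. Of the 22953 coding bases of the 59 covered genes 77.1% were unique, and 72.3%, 74.7% and 71.0% of the unique bases were under a peak, against 89.9%, 92.2% and 90.6% of the shared bases. Over the 36 covered genes that were at least 90% unique the median coverage was 76.1%, 75.1% and 74.2%. Over the 5 covered replacement genes that were at least 90% unique it was 34.1%, 38.7% and 88.1%. In G325E the replacement median of these unique genes was thus the higher one, though it rests on 5 genes.

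A few replication-dependent genes stood apart, and those outside the rule for named genes were picked after their values were seen. HIST1H3G, an H3 gene with a wholly unique coding sequence, was covered at 37.7% in vector, 32.4% in WT DDX3X and 0% in G325E. HIST1H3D, also wholly unique, was covered at 0%, 46.8% and 0%, and of its 6, 10 and 7 assigned peaks 0, 3 and 0 lay on its exon. HIST1H3G and HIST1H3D were the only covered replication-dependent genes without a covered coding base in G325E. A 27-base peak of HIST1H3G had the same limits in vector and WT DDX3X (chr6:26271241-26271267, GRCh37, minus strand, coding), and is shown with G and C in capitals to make its base composition visible; 51.9% of its bases were G or C.
HIST1H3G: aaGCGaGtGaCtatCatGCCCaaGGaC

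HIST3H2A, an H2A gene, was covered at 26.9% in vector, 32.1% in WT DDX3X and 90.3% in G325E, where it had a peak of 237 bases in the second part of the coding sequence that neither other list held. HIST1H4L, an H4 gene, was covered at 25.6%, 22.7% and 59.2%, and HIST1H1B, a linker histone gene, at 30.2%, 35.99% and 45.7%. HIST2H2AA4, an H2A gene, was covered at 34.4%, 93.6% and 88.5%, but none of its coding bases was unique and its copy HIST2H2AA3 stood at 93.3%, 74.9% and 89.7%. HIST1H4G, the H4-like gene with the lowest coverage of those covered in every list, was at 17.3%, 17.3% and 17.0%.

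The linker histones of the replacement class diverged. H1F0 (chr22:38201236-38203439, plus strand), the linker histone that accumulates in cells that stop dividing, was covered at 86.3%, 87.5% and 88.1% of its coding bases. H1FX (chr3:129033614-129035129, minus strand), a variant linker histone, was covered at 34.1%, 35.1% and 93.7%. H1F0 thus hardly differed between the lists, while H1FX was about as covered in vector as in WT DDX3X and nearly full in G325E. A peak of 33 coding bases seen in G325E alone (chr3:129034475-129034507) is shown as an example of the gained sequence, with G and C in capitals (57.6% of bases). It lies beside a peak of 359 bases that was also absent from the other lists. The 31 bases at the peak centre were 61.3% GC in the 33-base peak and 77.4% in the 359-base peak. The printed stretch is thus the less GC-rich of these peaks.
H1FX: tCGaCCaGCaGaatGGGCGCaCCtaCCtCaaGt

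Of the H2A variants, H2AFX (chr11:118964584-118966175, minus strand), whose phosphorylated protein marks DNA breaks, was covered at 37.5%, 38.7% and 91.4%. On its own strand alone the values were 18.9%, 38.7% and 72.7%, so G325E remained highest. In vector and WT DDX3X coverage ended at coding base 172 of 429, and in G325E it reached the last coding base. H2AFZ and H2AFV, which code for the H2A.Z variants found at promoters, were covered at 43.5%, 39.1% and 22.4% and at 16.1%, 16.7% and 0%. H2AFY and H2AFY2, which code for the macroH2A variants enriched on the inactive X chromosome, were covered at 22.5%, 40.8% and 8.33% and at 0%, 16.2% and 0%. All 4 of these genes have introns, and in all 4 the G325E value was below that of WT DDX3X.

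The H3.3 genes H3F3A and H3F3B code for the same protein, which is placed in chromatin outside replication. H3F3B was covered at 59.3%, 56.9% and 59.1% and H3F3A at 30.1%, 31.4% and 23.3%. None of the covered bases of H3F3A was unique, so its values may hold reads of its processed copies. H3F3C (chr12:31944119-31945232, minus strand), an intronless H3.3-like gene, was covered at 0%, 55.8% and 0%, and 139 of its 226 covered bases in WT DDX3X were unique (61.5%). Any word that it shares with spliced H3F3B mRNA across an exon join counts as unique here, and the number of bases affected was not tested.

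The replacement genes were also described by gene structure. The 4 single-exon genes (H1F0, H1FX, H2AFX and H3F3C) had a median coverage of 35.8%, 47.2% and 89.8%, and the 6 with introns 26.3%, 35.2% and 15.4%. In the genes with introns the last coding exon was covered in 1 of 6 (H3F3B, 2.38% of its bases) in each list. H3F3B was covered at 99.2% of its first coding exon in every list, at 72.7%, 66.2% and 72.1% of the next (coding bases 129 to 282) and hardly beyond it. H3F3A was covered at 96.1%, 100% and 74.2% of its first coding exon (bases 1 to 128) and at 0% of the others. H2AFZ was covered in exons 2 and 3 alone (98.7%, 98.7% and 85.9%, then 78.9%, 64.0% and 16.7%).

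H2AFY shows the difference between lists most plainly by exon. In WT DDX3X its exons 2, 3, 4 and 5 were covered at 68.6%, 83.2%, 82.3% and 76.6%. In vector exons 4 and 5 were covered at 79.8% and 82.0% and exon 3 at 1.87%, and in G325E exon 5 alone, at 83.8%. Exons 6 to 9 had 0% in every list. Peaks also lay in introns of H3F3B (7, 5 and 6) and H3F3A (1, 4 and 2), and whether spliced alignment or an overlapping transcript placed them there was not tested.

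**Figure D3:**
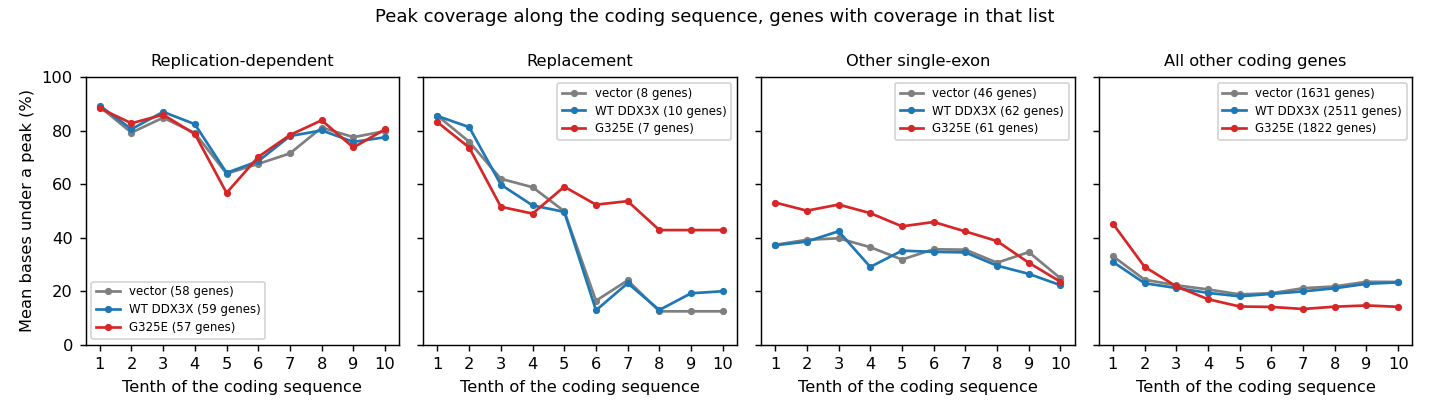
Mean percent of bases under a peak (y axis) in each of 10 equal parts of the coding sequence, from the start codon to the stop codon (x axis), for replication-dependent, replacement and other coding genes with coverage in each list. Replication-dependent genes are high at both ends (89.0% and 79.8% in vector) with a shallow dip at the middle, and replacement genes fall from 85.6% to 12.5% in vector.

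Along the coding sequence, replication-dependent genes were covered at both ends. In the first of 10 equal parts 89.0%, 89.3% and 88.3% of bases were under a peak in vector, WT DDX3X and G325E, in the fifth 64.0%, 64.2% and 56.7%, and in the last 79.8%, 77.5% and 80.5%. Replacement genes began at 85.6%, 85.5% and 83.2% and ended at 12.5%, 20% and 42.9%, and the higher end in G325E is that of the single-exon H1F0, H1FX and H2AFX. The mean position of coding peaks, from 0 at the start to 1 at the stop codon, was 0.501 ± 0.297 (SD over 211 peaks), 0.503 ± 0.294 (206 peaks) and 0.501 ± 0.294 (241 peaks) for replication-dependent genes. For replacement genes it was 0.298 ± 0.194 (24 peaks), 0.305 ± 0.223 (35 peaks) and 0.389 ± 0.234 (24 peaks).

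Of the peaks placed on exons of replication-dependent genes, 91.3% (87.0 to 94.3), 86.9% (82.0 to 90.6) and 92.7% (88.9 to 95.3) had their midpoint in coding sequence, and 3, 8 and 3 peaks had it in the 5′-UTR. On replacement genes 72.7% (55.8 to 84.9), 70% (56.3 to 80.9) and 60% (44.6 to 73.7) were coding, and 7, 10 and 12 peaks were in the 5′-UTR, or 21.2%, 20% and 30%.

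The classes parted in the 5′-UTR, the mRNA before the start codon, in G325E. Pooled over genes, 17.4%, 21.04% and 13.4% of the 5′-UTR bases of replication-dependent genes were under a peak in vector, WT DDX3X and G325E. For replacement genes the values were 21.2%, 22.1% and 58.6%, and without H1FX, the gene with the longest 5′-UTR, 18.7%, 23.9% and 53.6%. Other coding genes were also highest in G325E, at 9.34%, 16.2% and 28.2%, as did other single-exon genes, at 10.2%, 17.5% and 34.4%.

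Replication-dependent genes have short 5′-UTRs, with a median of 37 bases against 132.5 for replacement and 102 for other coding genes. The 809 other coding genes with a 5′-UTR of 2 to 57 bases were covered at 15.02%, 21.8% and 23.1%. In that set, whose median 5′-UTR was 29 bases, the G325E value lay above vector. The replication-dependent 5′-UTRs ran from 0 to 213 bases, so the sets are only roughly alike in length, and the part of 5′-UTR length in the difference was not tested.

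**Figure D4:**
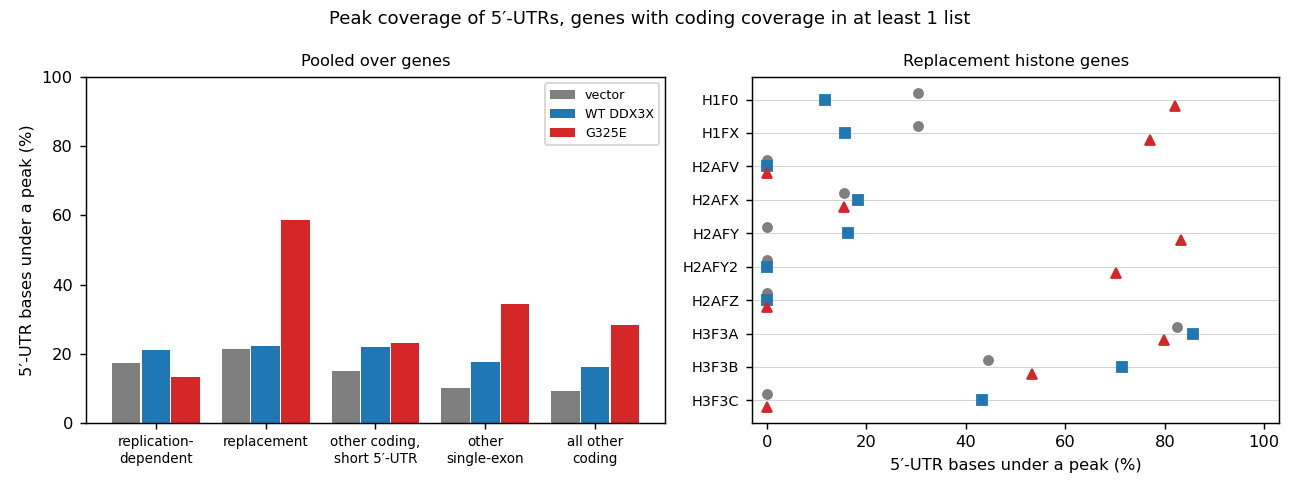
Left, percent of 5′-UTR bases under a peak, pooled over genes, in 5 sets of coding genes by list. Right, the same for each replacement histone gene; in G325E H1F0, H1FX, H2AFY and H2AFY2 lie above 70%, while replication-dependent genes as a set stand at 13.4%.

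Within the replacement class the high G325E value lay in 4 genes. The 5′-UTR of H1F0 (316 bases) was covered at 30.4%, 11.7% and 82.0% in vector, WT DDX3X and G325E, and that of H1FX (384 bases) at 30.5%, 15.6% and 77.1%. The 5′-UTR of H2AFY (203 bases) was covered at 0%, 16.3% and 83.3%, and that of H2AFY2 (214 bases) at 0%, 0% and 70.1%. H2AFY and H2AFY2 thus had the highest 5′-UTR coverage in the list in which their coding coverage was lowest or 0%, whereas H1FX was high in G325E in both parts.

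The other replacement genes did not follow. H3F3A was covered at 82.4%, 85.7% and 79.8% of its 5′-UTR (119 bases) and H3F3B at 44.4%, 71.4% and 53.4% (133 bases). H2AFX was covered at 15.5%, 18.3% and 15.5% (71 bases), H3F3C at 0%, 43.2% and 0%, and H2AFV and H2AFZ at 0% in each list.

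**Figure D5:**
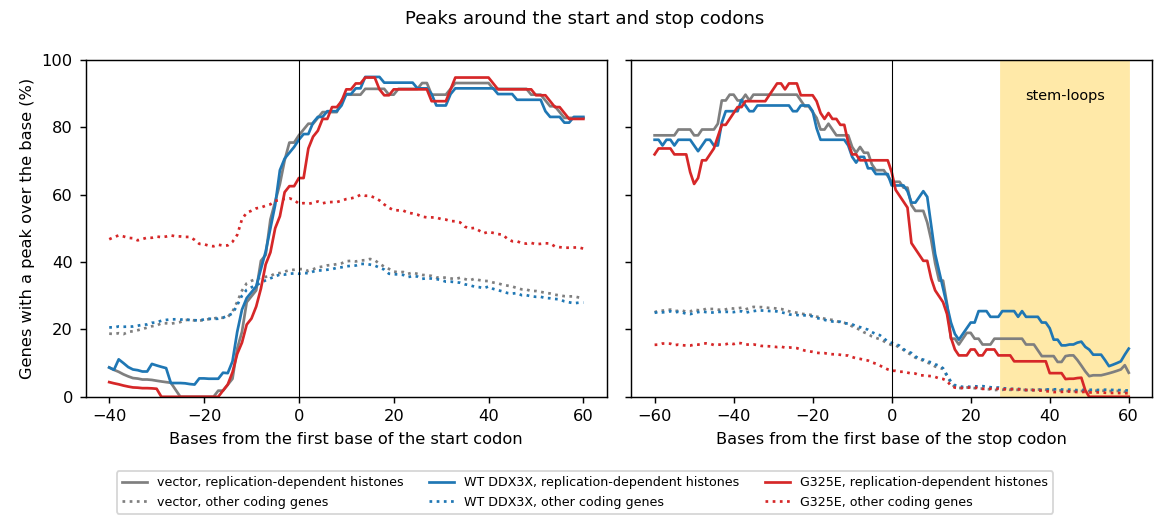
Percent of covered genes with a peak at each base around the start codon and the stop codon (x axis, distance in bases) for replication-dependent and other coding genes in the 3 lists. Coverage of replication-dependent genes climbs sharply at the start codon, from at most 5.45% at 20 bases before it to over 89% at 10 bases after it, and other coding genes in G325E are already at 45.3% at 20 bases before it.

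Around the start codon the replication-dependent genes changed from nearly uncovered to nearly full within a few codons. At 20 bases before the start codon 0%, 5.45% and 0% of genes with a 5′-UTR that long were under a peak, at the first base of the start codon 77.6%, 76.3% and 64.9%, and at 10 bases after it 89.7%, 89.8% and 91.2%. Other coding genes stood at 22.7%, 22.97% and 45.3% at 20 bases before and at 37.9%, 36.5% and 57.3% at the start codon. At 30 bases before the stop codon 89.7%, 86.4% and 91.2% of replication-dependent genes and 26.3%, 25.4% and 14.9% of other coding genes were under a peak. At 20 bases past it the replication-dependent genes were down to 19.0%, 22.0% and 14.0%.

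Few peaks reached into the stem-loop. A peak touched the stem-loop in 8 of 58 covered replication-dependent genes in vector, 13 of 59 in WT DDX3X and 3 of 57 in G325E, and covered all 16 bases in 0 genes. Of the stem-loops printed above, that of HIST1H4C had 3, 5 and 0 covered bases in vector, WT DDX3X and G325E and that of HIST1H2BK had 0, 4 and 0, while the other 4 had 0 in each list. Of all 3′-UTR bases of the replication-dependent genes 12.5%, 16.1% and 9.63% were under a peak. These pooled bases include the long 3′-UTR models of HIST2H2BE (1801 bases) and HIST2H2AA3 (368 bases), which run far past the stem-loop. The pooled values are therefore not those of a typical member.

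A larger share of replication-dependent histone peaks than of other peaks was found again in another list. Of their vector peaks 92.9% (89.1 to 95.5) overlapped a WT DDX3X peak by at least 1 base and 84.3% (79.3 to 88.3) a G325E peak, against 76.4% and 47.1% of the peaks of all non-histone genes. Of their G325E peaks 85.7% (81.1 to 89.3) overlapped a vector peak and 90.0% (85.9 to 93.0) a WT DDX3X peak, against 34.4% and 46.5%. Of their WT DDX3X peaks 81.7% overlapped a vector peak and 77.7% a G325E peak, against 41.0% and 34.3%. Longer peaks meet a peak of another list more easily, and peaks placed on histone exons were longer, as given below. The overlaps use assigned peaks, so the set with given lengths is only partly the same.

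Replacement histone peaks had a lower share than replication-dependent peaks in each of the 6 pairings. Of their vector peaks 74.5% (61.1 to 84.5) overlapped a WT DDX3X peak and 76.5% (63.2 to 86.0) a G325E peak. Of the WT DDX3X peaks 50.7% (39.3 to 62.0) overlapped a vector peak and an equal share a G325E peak. Of the G325E peaks 59.2% (47.5 to 69.8) overlapped a vector peak and 49.3% (38.0 to 60.7) a WT DDX3X peak.

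The median length of peaks on replication-dependent exons was 66 bases in vector, 61 in WT DDX3X and 52 in G325E, and that of other peaks was 29, 29 and 30 bases. Replacement peaks had medians of 47, 37.5 and 51.5 bases. The mean GC content of the 31 bases at the centre of each peak was 60.6% ± 8.58 (SD over 231 peaks), 60.8% ± 8.59 (237 peaks) and 62.5% ± 8.67 (260 peaks) for replication-dependent histones. For other peaks it was 62.9% ± 13.4, 62.3% ± 13.6 and 73.4% ± 12.7, and for replacement histones 62.8% ± 9.78, 60.7% ± 10.1 and 69.0% ± 11.6. The G325E list was thus richer in GC by over 10 percentage points outside the histones and by under 2 in the replication-dependent genes, and the part of GC content in the other differences between lists was not tested beyond the weighting given above.

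Genes that supply cells with histones differed in direction between the lists. Of 29 genes that process histone mRNA or carry, modify or deposit histones, 10, 14 and 11 had an assigned peak in vector, WT DDX3X and G325E, and 15 in at least 1 list. All genes with a peak numbered 2023, 3007 and 2311, so the supply genes followed the order of the whole lists. SLBP, which binds the stem-loop, had 9, 4 and 10 peaks with coding coverage of 14.3%, 14.3% and 21.6%. Of the 17 genes with a covered coding base, 8 had lower coding coverage in G325E than in vector, 5 had higher, 1 was equal and 3 were covered in WT DDX3X alone. Among the histone chaperones with lower values in G325E, coverage was 30.2%, 38.6% and 8.50% for NASP (histones H3 and H4), 21.3%, 34.0% and 2.81% for NAP1L1 (H2A and H2B), 35.0%, 36.6% and 12.8% for SSRP1 (a FACT subunit) and 32.1%, 33.6% and 0% for NPM1. Coverage was highest in G325E for ASF1B (an H3 and H4 chaperone), at 0%, 6.44% and 12.05%, between the other lists for the importin IPO4, at 0%, 3.64% and 2.19%, and 1.18% in each list for RBBP7. The nucleolar protein NCL was covered at 19.7%, 53.1% and 28.7%. The genes named here were picked from the list after their values were seen. Of the 1697 coding genes with a covered base in vector, 38.4% were at least 2-fold lower in G325E. The counts of supply genes above take a change of any size, so that share is no background for them. A share of all coding genes with any change was not computed.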

How the data were processed

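The deposited values are positions (other) of ribosome peaks, without read counts, heights or scores, and the depth of each library was not analysed here. The study's supplement lists the most non-duplicated mapped reads for WT DDX3X and the fewest for G325E. As the authors describe, adapters were trimmed with Cutadapt, reads under 21 bases were dropped, reads were aligned with BWA (version 0.5.5 in the submitters' processing notes) to hg19 supplemented by AceView, RefSeq and exon-junction sequences, and read duplicates were discarded. Peaks were defined for each library by a cut-off on Bambino coverage, then merged, refined and reviewed manually. The columns follow the layout of HOMER, whose version is not given in the sources used here. Peak numbers were missing for 1952 of 13171 in vector, 3099 of 23019 in WT DDX3X and 0 of 15680 in G325E. The 671 peaks of no length were taken as 1 base.

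The members and lists were chosen with earlier results of these data known. A peak went to the gene of its RefSeq identifier where that identifier maps to the gene name in the file, and otherwise to the gene name. Older symbols were matched to RefSeq names by gene ID. Gene models were the canonical coding transcripts of GENCODE release 44 on GRCh37. The protein-coding genes HIST1H2BF, HIST1H2BG and HIST1H4F had no model; of these HIST1H2BF had assigned peaks and entered peak numbers only, as did 5 members that are pseudogenes or noncoding genes. Coverage used peaks on either strand. A base was unique when it lay in a 28-base word found at most 1 time in the genome, with spliced transcripts not searched. GC content was that of 31 bases at the peak centre. Genes at least 2-fold different between lists were called, with no test. Named genes were every replacement gene with a peak and up to 25 HIST genes with at least 4 peaks in a list and the most peaks over the lists; others were given by counts, or singled out as stated. Python 3.11.15, numpy 2.4.6, pandas 2.3.3, scipy 1.17.1, matplotlib 3.10.9 and pysam 0.24.0 were used, and the measures were tested on simulated data.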

Additional observations from a re-analysis of the deposited data

How the results depend on the processing

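With 1 library per construct, a construct and its library cannot be told apart; the depth of the libraries was not used here, and neighbouring bases are not independent. No paired analysis was possible because each group has 1 library. Of 141 alternative values 100 stayed within a set limit and 41 moved beyond it. The limit was the counting interval for shares, a multiple of the standard error for mean positions and a fold limit for numbers of genes. Some alternatives, among them the 5′-UTR settings, were chosen after seeing the data. Values are in the order vector, WT DDX3X and G325E unless a list is named. With peaks on the strand of the gene only, the replication-dependent share was 1.43%, 0.848% and 1.12%, the replacement share in G325E 0.351%, the replication-dependent part of histone peaks in WT DDX3X 73.5%, covered replacement coding bases 18.1% in vector and 21.3% in G325E, and covered replication-dependent 5′-UTR bases in WT DDX3X 19.2%. With peaks of at least 20 bases the replication-dependent share was 2.66%, 1.64% and 2.02%, and replacement 5′-UTR coverage in WT DDX3X 19.0%. Over peaks in transcript classes it was 2.62%, 1.58% and 2.10%, and at equal GC content 2.43% in G325E. Counting peaks on a histone exon gave a replication-dependent share of 1.19% in WT DDX3X, replacement shares of 0.294%, 0.251% and 0.255%, and a replication-dependent part of 87.5% in vector and 86.7% in G325E. The 5′ end of the peak put 72.7%, 69.8% and 79.9% of replication-dependent peaks in coding sequence. HOMER's exon class, which is not the same as coding sequence, held 31.8%, 28.9% and 30.7% of the peaks assigned to replication-dependent genes. For assigned replacement peaks it held 35.3%, 42.3% and 25.4%. Over unique bases, coverage pooled over all modelled genes was 59.4%, 61.4% and 58.4% for replication-dependent genes (64.9%, 66.9% and 64.2% over all bases) and 20.5%, 27.7% and 25.4% for replacement genes (19.0%, 25.7% and 22.2%). In genes at least 90% unique it was 54.5%, 56.3% and 54.1%, and 26.3% for replacement genes in G325E. The cause of these moves was not tested.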
